A study of Mus musculus with 16 samples.

Results

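RNA of 6 genes for cytosolic nucleic acid sensing, Ddx58, Ifih1, Dhx58, Mavs, Cgas and Zbp1, was examined in mouse bone marrow-derived macrophages (BMDMs). They are 6 of the 55487 genes in the deposited table. The genes were taken by symbol and not by a rule on measured values, but with earlier results of these data known. All 6 passed the filter on low counts that left 12372 genes for testing. Ruxolitinib (Rux), an inhibitor of the kinases JAK1 and JAK2, lowered 5 of the 6 genes in plain medium, where 0.97% of all genes tested were called lower, and 3 of the 6 in medium conditioned by tumor cells, where 2.13% were. Leaving out single samples cut the 5 to 3, without Ifih1 and Dhx58, and gave 2 to 4 in place of the 3 in conditioned medium. No member passed the test of the difference in response between the media, except Cgas in a fit with the replicate number as a block. Mavs did not pass the test with the inhibitor in either medium. Some alternative fits called it lower in the samples labelled 2 h, which have no control with that label.

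RIG-I (encoded by Ddx58) and MDA5 (Ifih1) are helicases that bind viral double-stranded RNA in the cytosol and signal through paired caspase recruitment domains. LGP2 (Dhx58) is a related helicase that lacks these domains and modulates the other two. Active RIG-I and MDA5 engage MAVS, an adaptor on the outer membrane of mitochondria, which leads to the kinases TBK1 and IKKε, the factors IRF3 and IRF7 and the transcription of type I interferon. cGAS (Cgas) binds double-stranded DNA and makes the messenger cGAMP for STING, and ZBP1 binds Z-form nucleic acids and can start cell death through RIPK3. Interferon acts in turn through its receptor, JAK1 and TYK2 on the factor ISGF3, which holds STAT2 and IRF9 and binds interferon-stimulated response elements (ISREs), and several sensor genes are known targets of it.

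The study asked how macrophages exposed to soluble tumor factors respond to JAK inhibition, alone or with an inhibitor of NF-κB activation. All 16 samples were BMDMs of wild-type Balb/c mice of 8 weeks that were serum starved before treatment. There were 2 samples in DMEM, which is medium without tumor factors, 3 with ruxolitinib in DMEM (DMEM + Rux), 3 in medium conditioned by the mouse mammary tumor line 4T1 (CM), 3 with ruxolitinib at 0.5 μM in CM (CM + Rux, labelled 4 h) and 3 with, besides, the IKK inhibitor IKK-16 at 0.8 μM (CM + Rux + IKK-16). Another 2 samples were labelled CM, Rux and 2 h, a time whose meaning the sources leave unsaid. In the samples with CM and ruxolitinib, the inhibitor was already present during pre-treatment. The dose in DMEM + Rux is not in the labels. CM is an undefined mixture from a single tumor line, and no source used here says whether samples of a group came from separate mice or cultures, so p-values measure only the spread between these samples, which may be technical.

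The deposited table counts fragments per gene, and the samples held between 18449388 and 46215853 counted fragments. Levels below are CPM values, which are counts relative to the library total, with totals scaled by relative log expression (RLE). Each sensor gene had at least 82 fragments in every sample. All 8 macrophage markers examined were above 1 CPM in every group and summed to between 40148 and 57183 CPM, against at most 1.45 CPM for 7 epithelial markers, 0.0552 CPM for 7 T and NK cell markers and 1.23 CPM for 5 B cell markers. The sums were 15.99 to 33.9 CPM for 6 fibroblast markers, 86.3 to 149 CPM for 7 dendritic cell markers and 0.236 to 3.24 CPM for 7 neutrophil markers, of which S100a8 was higher in CM than in DMEM (log2 fold change 2.97, adjusted p = 6.22e-05 in edgeR). The part of these cell types in the results was not tested. In bulk RNA, fewer cells with a transcript and less transcript per cell cannot be told apart.

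Promoter sequence from RefSeq (GRCm38.p6) was at hand for 4 of the 6 genes, Ddx58, Ifih1, Mavs and Cgas. The 250 bases before the start site of each are shown because these genes differed in how they moved with ruxolitinib. Each is written 5′ to 3′ on the strand of its gene, and capitals mark a pair of GAAA letters with a single base between them. The windows are chr4:40239826-40240075 (minus strand) for Ddx58, chr2:62646256-62646505 (minus strand) for Ifih1, chr2:131233813-131234062 (plus strand) for Mavs and chr9:78443238-78443487 (minus strand) for Cgas.
Ddx58: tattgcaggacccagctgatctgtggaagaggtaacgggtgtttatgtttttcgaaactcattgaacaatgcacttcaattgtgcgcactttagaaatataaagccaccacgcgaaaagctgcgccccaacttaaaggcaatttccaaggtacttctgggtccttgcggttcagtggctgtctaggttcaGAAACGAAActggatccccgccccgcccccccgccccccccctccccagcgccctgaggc
Ifih1: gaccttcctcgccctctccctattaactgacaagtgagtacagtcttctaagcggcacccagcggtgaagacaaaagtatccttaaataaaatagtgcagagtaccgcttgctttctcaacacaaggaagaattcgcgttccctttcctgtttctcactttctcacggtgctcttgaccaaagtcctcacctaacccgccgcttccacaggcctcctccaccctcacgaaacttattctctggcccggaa
Mavs: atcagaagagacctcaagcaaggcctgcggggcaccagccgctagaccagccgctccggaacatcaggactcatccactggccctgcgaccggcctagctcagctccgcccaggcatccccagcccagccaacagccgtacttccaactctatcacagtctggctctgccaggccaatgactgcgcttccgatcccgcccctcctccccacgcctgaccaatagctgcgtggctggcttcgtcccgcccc
Cgas: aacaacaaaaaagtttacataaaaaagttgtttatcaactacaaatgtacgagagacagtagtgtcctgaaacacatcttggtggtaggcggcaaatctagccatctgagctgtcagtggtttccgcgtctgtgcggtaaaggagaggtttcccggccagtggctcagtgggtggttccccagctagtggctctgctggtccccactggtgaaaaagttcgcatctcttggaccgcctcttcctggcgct
Both strands of the 300 bases from 250 before to 50 after each start were searched for the core letters of an ISRE, GAAANNGAAA, which 3.44% of 32851 mouse promoters of the same length hold. The other motifs were the STAT site letters TTCNNNGAA, in 8.3% of promoters, a κB motif, in 4.51%, and GAAANGAAA, in 3.17%. The last was added after the Ddx58 window had been seen. Ddx58 held the pair GAAANGAAA at 60 to 52 bases before its start site. The ISRE core lay just after the start site in Ddx58 (bases 3 to 12, on the opposite strand) and in Ifih1 (bases 33 to 42), each shown with 8 bases on either side and the match in capitals, at chr4:40239806-40239831 and chr2:62646206-62646231.
Ddx58 site: tgaggcagTTTCGATTTCctatggcc
Ifih1 site: agagaatcGAAACAGAAAccgatctg
None of the 4 motifs was found in the windows of Mavs and Cgas, which says only that these letters are not there. A match is a run of letters and was not tested as a binding site.

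Ddx58 (ENSMUSG00000040296, chr4:40203773-40239828, minus strand), the gene for RIG-I, held 70.8 and 106 CPM in the 2 DMEM samples and 21.1, 19.6 and 19.3 CPM in DMEM + Rux. The CM samples held 38.3, 72.3 and 46.2 CPM, against 10.4, 16.3 and 11.3 CPM in CM + Rux. With IKK-16 added the level was 12.7, 17.9 and 12.2 CPM, and in the 2 h samples 18.6 and 16.5 CPM. Every sample without ruxolitinib lay above every sample with it. Over all genes tested, DMEM + Rux lay wholly below DMEM for 8.84% and CM + Rux wholly below CM for 9.57%. Shares for all groups at once, here and in the genes below, were not counted. The order of group means was DMEM, CM, DMEM + Rux, CM + Rux at 2 h, CM + Rux + IKK-16 and CM + Rux. In that order the samples of CM did not overlap with those of DMEM + Rux, nor DMEM + Rux with the 2 h samples, and the other neighbours overlapped.

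Ifih1 (ENSMUSG00000026896, chr2:62595798-62646255, minus strand), the gene for MDA5, held 57.1 and 76.1 CPM in DMEM and 27.1, 21.6 and 26.1 CPM in DMEM + Rux. In CM it was at 54.2, 89.0 and 50.9 CPM, and in CM + Rux at 35.4, 65.8 and 34.5 CPM. Values of 29.9, 41.9 and 30.5 CPM were found with IKK-16 added, and of 31.8 and 27.1 CPM in the 2 h samples. The CM + Rux sample numbered 2 lay above CM samples 1 and 3, so these groups overlapped. All neighbours in the order of group means (DMEM, CM, CM + Rux, CM + Rux + IKK-16, CM + Rux at 2 h, DMEM + Rux) overlapped.

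Dhx58 (ENSMUSG00000017830, chr11:100694884-100704271, minus strand), the gene for LGP2, was at 35.3 and 65.9 CPM in DMEM and at 9.42, 11.03 and 10.8 CPM in DMEM + Rux. Its CM samples held 44.2, 97.8 and 52.9 CPM, and the CM + Rux samples 12.4, 32.0 and 14.4 CPM. With IKK-16 the values were 14.1, 36.2 and 16.6 CPM, and at 2 h they were 28.004 and 22.1 CPM. Samples with and without ruxolitinib did not overlap except for the CM + Rux + IKK-16 sample numbered 2, which lay just above the lower DMEM sample. Of the 3272 exonic bases of Dhx58, 141 overlap with Dhx58os on the opposite strand, which the authors' counting by strand separates.

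Mavs (ENSMUSG00000037523, chr2:131234063-131248025, plus strand), the adaptor gene, held 48.2 and 48.1 CPM in DMEM and 50.3, 44.2 and 49.4 CPM in DMEM + Rux. The level was 60.8, 85.1 and 71.6 CPM in CM and 62.0, 80.8 and 67.1 CPM in CM + Rux. It was 66.8, 86.0 and 74.6 CPM with IKK-16 and 56.9 and 48.0 CPM in the 2 h samples. The CM, CM + Rux and CM + Rux + IKK-16 groups overlapped with each other, and each lay wholly above both DMEM groups and the 2 h samples. Such separation was common, as CM lay wholly above DMEM for 37.8% of all genes tested. CM + Rux lay wholly above DMEM + Rux for 35.2%, and shares for the 2 h samples were not counted.

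Cgas (ENSMUSG00000032344, chr9:78430526-78443237, minus strand), the DNA sensor gene, held 13.8 and 14.4 CPM in DMEM and 7.39, 8.02 and 7.90 CPM in DMEM + Rux. In CM it held 13.4, 12.4 and 13.2 CPM, and in CM + Rux 10.4, 9.62 and 10.9 CPM. Adding IKK-16 went with 15.1, 12.2 and 15.8 CPM, and the 2 h samples held 9.997 and 11.2 CPM. Replicates of Cgas lay closer together than those of the RNA sensors, with an SD of 0.504 CPM about a mean of 13.02 CPM in CM (n = 3). DMEM + Rux lay below every other group. The antisense transcript Gm8093 shares 201 of the 4126 exonic bases of Cgas.

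Zbp1 (ENSMUSG00000027514, chr2:173206612-173218923, minus strand), the sensor of Z-form nucleic acids, was at 19.4 and 30.4 CPM in DMEM and at 3.79, 4.11 and 5.31 CPM in DMEM + Rux. The CM samples were at 20.6, 33.0 and 20.3 CPM and the CM + Rux samples at 4.61, 6.93 and 4.43 CPM. With IKK-16 the gene was at 4.25, 6.64 and 4.31 CPM, and at 2 h at 8.04 and 6.14 CPM. All samples with ruxolitinib lay below all samples without it. The 4 groups with ruxolitinib overlapped with their neighbours in the order of means.

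**Figure D1:**
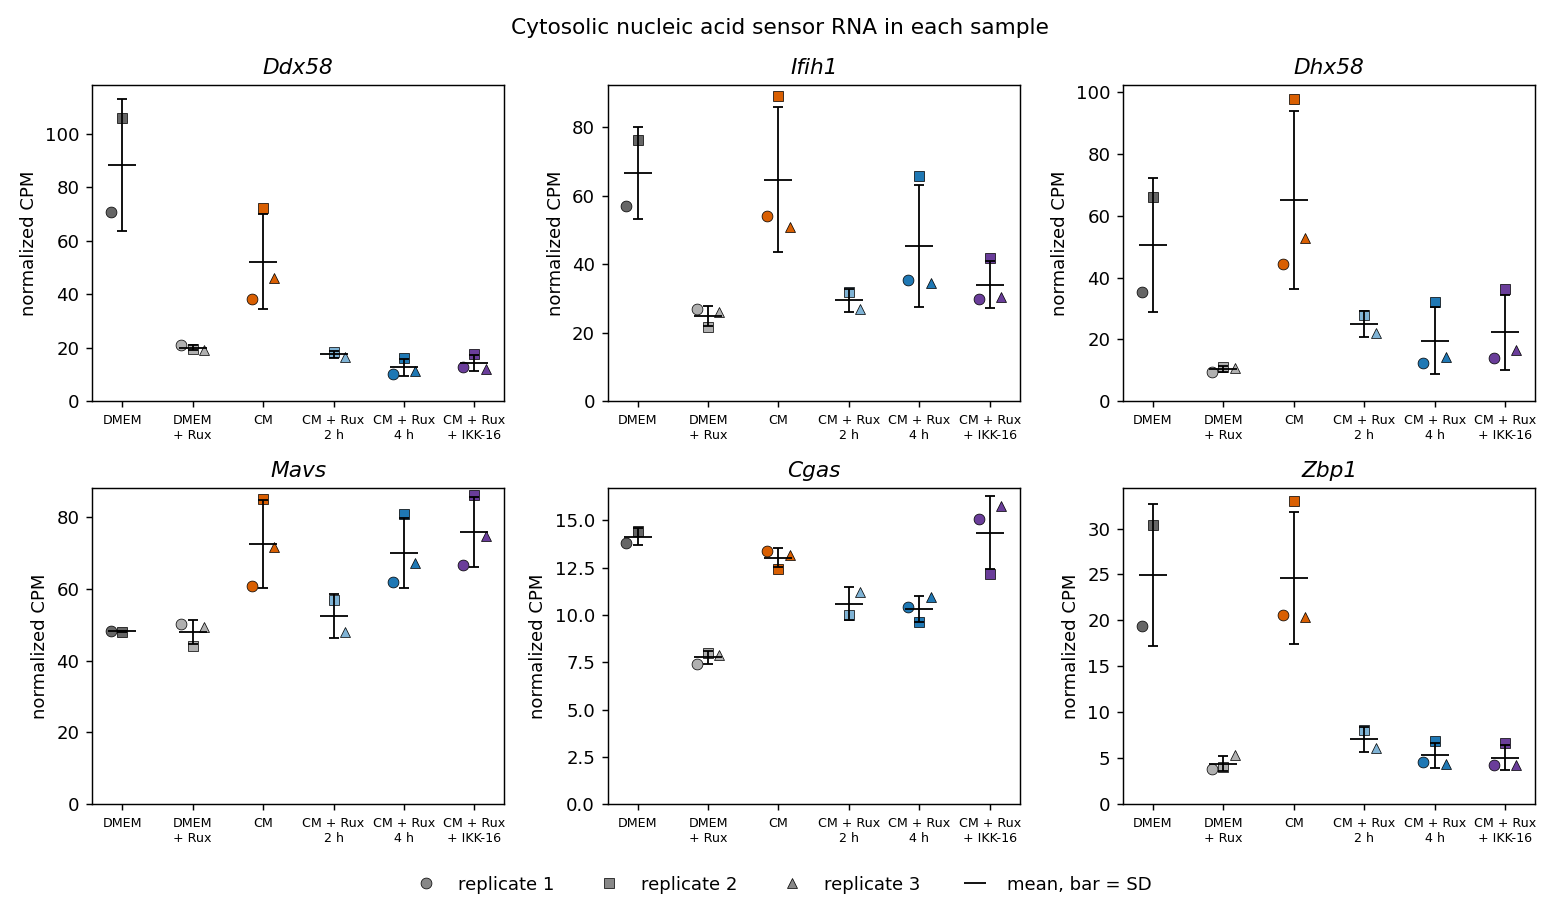
Normalized CPM of the 6 sensor genes in each of the 16 samples, by group. Symbols mark the replicate number, the black dash is the group mean and the bar the SD. Ddx58 and Zbp1 lie below 22 CPM and 9 CPM in every sample with ruxolitinib, and Mavs lies at 44.2 to 86.0 CPM in all groups.

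Per kilobase of exon, which allows levels of different genes to be compared, Mavs was the highest of the 6 genes in 5 of the 6 groups, with a mean of 21.7 CPM per kb in CM (SD 3.64, n = 3). In DMEM, Dhx58 led with a mean of 15.5 CPM per kb (SD 6.61, n = 2), beside 14.4 CPM per kb for Mavs (SD 0.0304, n = 2). In CM, Dhx58 came next to Mavs with 19.9 CPM per kb (SD 8.79, n = 3), a difference within the spread of Dhx58. With ruxolitinib in CM the adaptor stood well above its receptors, at 20.9 CPM per kb (SD 2.90, n = 3) against 5.99 for Dhx58 (SD 3.31), 5.54 for Ifih1 (SD 2.18) and 1.80 for Ddx58 (SD 0.446). Zbp1 was the lowest of the 6 in every group with ruxolitinib, and Cgas in DMEM and CM.

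Ruxolitinib in plain medium lowered the sensors by amounts that differed from gene to gene. Against DMEM, DMEM + Rux was lower in 5 of the 6 genes and higher in none, as called by edgeR's quasi-likelihood test (adjusted p under 0.05, log2 fold change larger than 0.5 in size), where 0.97% of all 12372 genes tested were called lower. Zbp1 fell 5.63-fold (log2 fold change -2.49, SE 0.29, adjusted p = 1.75e-04) and Ddx58 fell 4.42-fold (-2.14, SE 0.26, adjusted p = 2.43e-04). The drop in Dhx58 was 4.83-fold (-2.27, SE 0.47, adjusted p = 0.0282), that in Ifih1 2.68-fold (-1.42, SE 0.29, adjusted p = 0.0235) and that in Cgas 1.82-fold (-0.86, SE 0.11, adjusted p = 6.72e-04). For these 5 genes the groups did not overlap, as for 8.84% of all genes in this direction. Mavs differed by -0.01 with a 95% interval of -0.32 to 0.31 on the log2 scale. The calls of Ifih1 and Dhx58 were lost without DMEM sample 2 (adjusted p = 0.206 and 0.265) and without any of the 3 DMEM + Rux samples (adjusted p of 0.0686 to 0.127 for Ifih1 and 0.115 to 0.136 for Dhx58). The sum of 7 dendritic cell markers was also lower in DMEM + Rux, at 86.3 to 91.0 CPM against 126 to 131 CPM in DMEM. At most 2 of these markers were above 1 CPM in these groups. Of the 3 markers tested, Bst2 was called lower (-0.53, adjusted p = 0.00436) and 2 were not called. The part of these markers in the result was not tested.

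Ruxolitinib in tumor-conditioned medium lowered Ddx58, Dhx58 and Zbp1. These 3 of the 6 genes were called lower in CM + Rux against CM and none was called higher, where 1.2% of all genes tested were called higher and 2.13% lower (263 genes, or 440 with the replicate number as a block). Zbp1 was 4.59-fold lower (log2 fold change -2.20, SE 0.26, adjusted p = 2.58e-04), Ddx58 4.12-fold lower (-2.04, SE 0.24, adjusted p = 2.52e-04) and Dhx58 3.30-fold lower (-1.72, SE 0.42, adjusted p = 0.0325). The call of Dhx58 was lost without CM sample 2 (adjusted p = 0.162), without CM + Rux sample 1 (0.151) and without CM + Rux sample 3 (0.131). Ifih1 differed by -0.51 (95% interval -1.07 to 0.04, adjusted p = 0.377), and was called without CM + Rux sample 2 (-0.89, adjusted p = 0.0439) and without all samples numbered 2 (-0.58, SE 0.07, adjusted p = 0.00623). Cgas was lower in every CM + Rux sample than in any CM sample, as were 9.57% of all genes, but its difference of -0.34 (SE 0.10, adjusted p = 0.0904) did not pass. Mavs differed by -0.05, with an interval of -0.33 to 0.23. The dendritic cell markers summed to 103 to 115 CPM in CM + Rux against 124 to 149 CPM in CM, without overlap. Of the 3 markers tested none was called lower, with Bst2 at -0.32 (adjusted p = 0.0325), and Ccr9 was called higher (1.46, adjusted p = 0.0325). The part of the markers in this result was not tested.

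**Figure D2:**
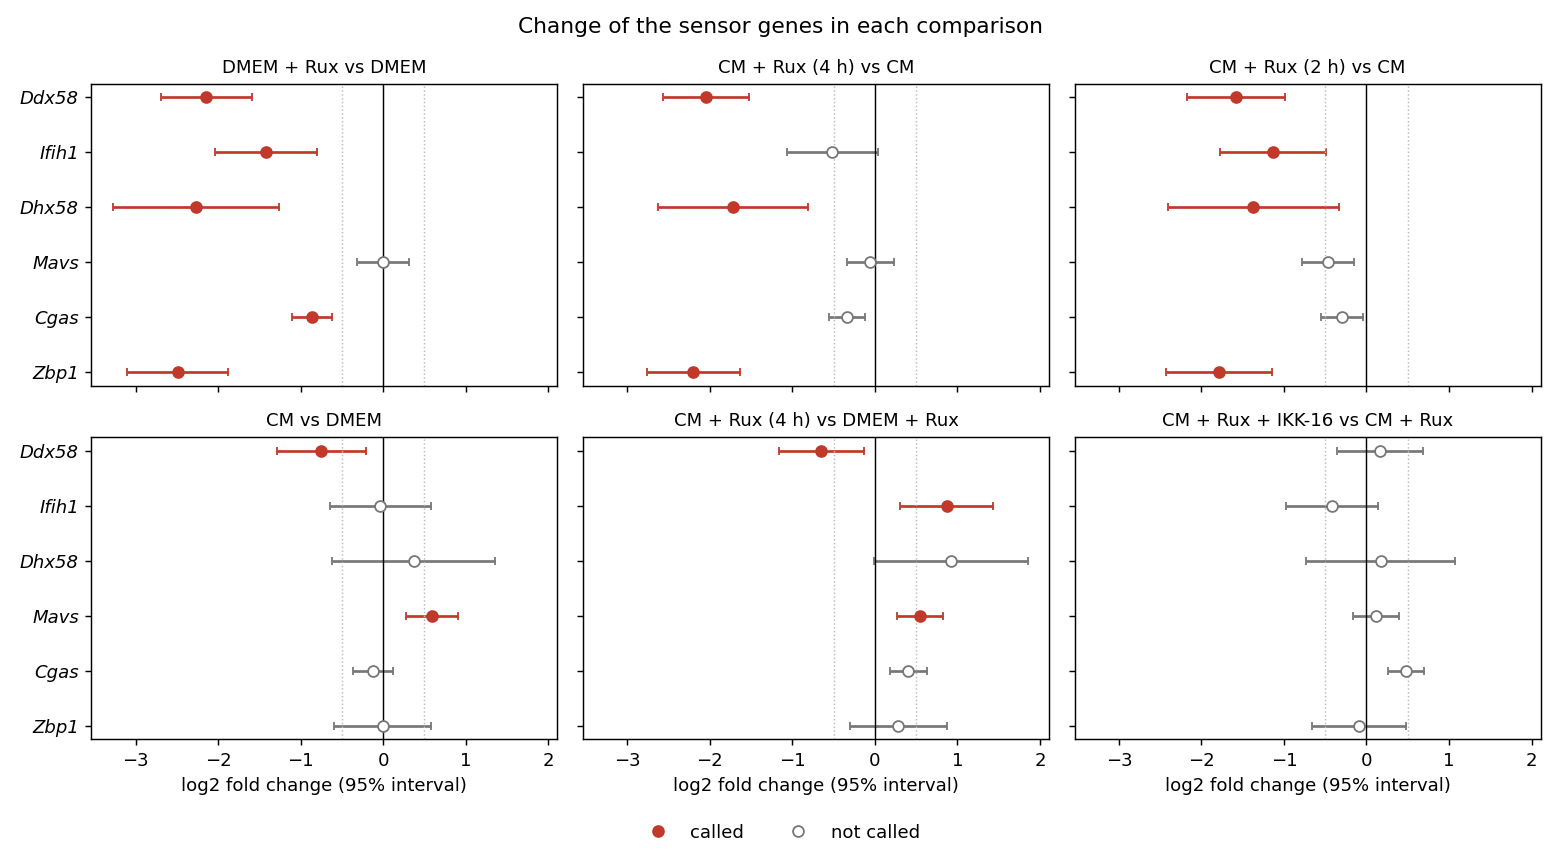
Log2 fold change of each sensor gene in 6 comparisons, with 95% intervals. Filled red points passed both thresholds, open points did not, and dotted lines mark a log2 fold change of 0.5 in either direction. Zbp1 lies at -2.49 and Ddx58 at -2.14 with ruxolitinib in DMEM, and Mavs lies at -0.01 there and at 0.59 in CM against DMEM.

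Samples with the same replicate number moved together in CM and CM + Rux, and ratios within a number were narrow. Zbp1 kept 21.02% to 22.3% of its CM level in the 3 same-numbered CM + Rux samples, Ddx58 22.5% to 27.1% and Dhx58 27.1% to 32.8%. Ifih1 stood at 65.4% to 74.0% of its CM level and was lower in 3 of 3 pairs, and with the block its log2 fold change was -0.52 (SE 0.18, adjusted p = 0.0768). Cgas stood at 77.2% to 82.9%, and with the block its adjusted p was 0.0256 at a log2 fold change of -0.34, short of the fold threshold. Mavs was at 93.8% to 102% and not lower in every pair. The sample numbered 2 was the highest of its group in all 4 CM groups for Ddx58, Ifih1, Dhx58, Mavs and Zbp1 and in none of them for Cgas. Over all genes tested, 21.7% had sample 2 highest in CM, CM + Rux and CM + Rux + IKK-16. The share with the 2 h group included was not counted.

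**Figure D3:**
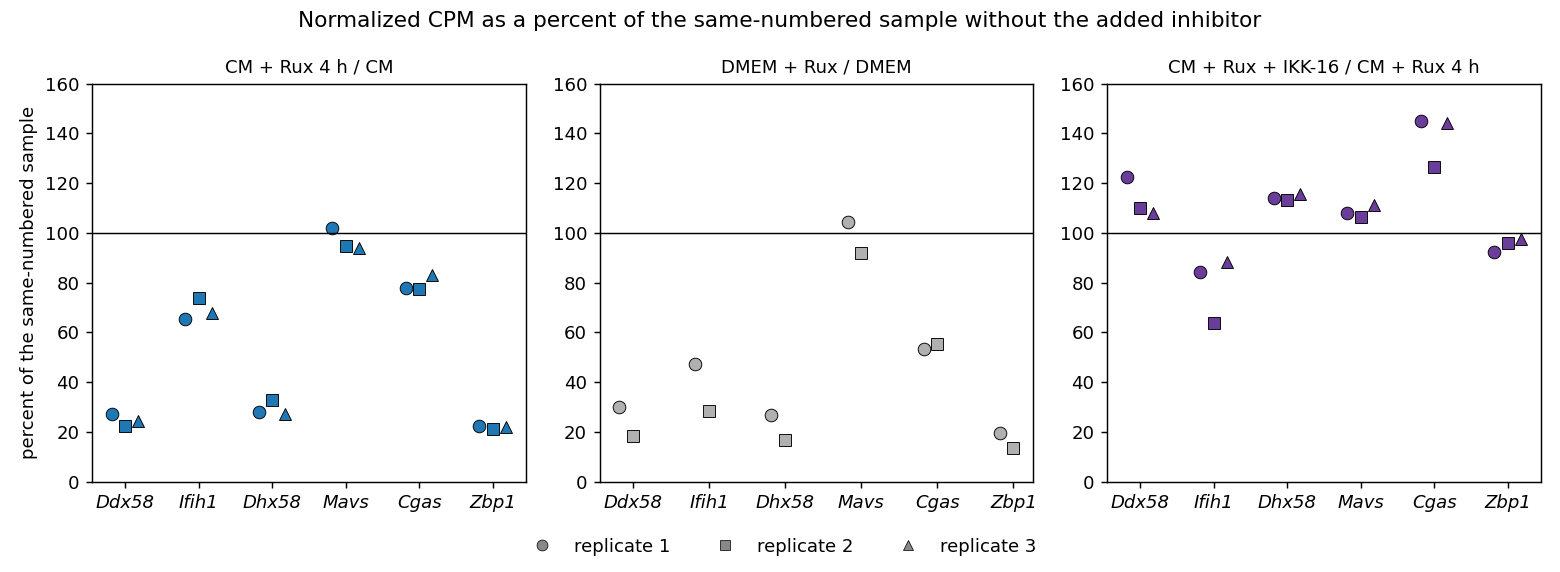
Normalized CPM of each sensor gene as a percent of the same-numbered sample without the added inhibitor, for ruxolitinib in CM, ruxolitinib in DMEM and IKK-16 on top of ruxolitinib in CM. Each point is a pair of samples and the line marks an unchanged level. In CM, Zbp1 kept 21.02% to 22.3% of its level in the 3 pairs, and with IKK-16 Cgas reached 127% to 145%.

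The effect of ruxolitinib in CM was compared with that in DMEM through the interaction term. None of the 6 genes passed in edgeR, where 0.412% of all genes did, and none passed in DESeq2, while 2 of the 6 had an unadjusted p under 0.05. Those were Cgas, whose drop was smaller in CM by 0.52 on the log2 scale (95% interval 0.19 to 0.86, adjusted p = 0.176), and Ifih1, smaller in CM by 0.91 (0.08 to 1.73, adjusted p = 0.478). With the replicate number as a block, Cgas passed at 0.55 (SE 0.14, adjusted p = 0.0356) and Ifih1 did not (0.79, adjusted p = 0.143). The block also raised the genes called from 29 higher and 22 lower to 247 higher and 197 lower. For Ddx58 the difference of the effects was 0.10 (interval -0.65 to 0.85) and for Zbp1 0.29 (-0.53 to 1.12).

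The CM samples without ruxolitinib carry no time label, so effects of ruxolitinib and of time in the 2 h samples against CM cannot be told apart. In the 2 CM + Rux samples labelled 2 h, the 3 RNA sensors and Zbp1 were lower than in CM. These 4 of the 6 genes were called lower and none higher, where 14.6% of all genes were called higher and 13.3% lower. Zbp1 was lower by a log2 fold change of -1.79 (SE 0.30, adjusted p = 3.36e-04), Ddx58 by -1.58 (SE 0.28, adjusted p = 4.49e-04), Dhx58 by -1.37 (SE 0.48, adjusted p = 0.0330) and Ifih1 by -1.13 (SE 0.30, adjusted p = 0.00766). Without the 2 h sample 3 the calls of Ifih1 (adjusted p = 0.0689) and Dhx58 (0.170) were lost, and that of Dhx58 also without the 2 h sample 2 (0.0905) or CM sample 2 (0.127). Mavs at -0.47 (adjusted p = 0.0209) was short of the fold threshold, which it passed without CM sample 1 (-0.58) or the 2 h sample 2 (-0.60), with scaling by total counts (-0.51) and with the replicate number as a block (-0.51, adjusted p = 0.00279). Against CM + Rux at 4 h no member was called by edgeR or DESeq2, where 12.6% of genes were called higher and 10.7% lower, and 1 of the 6 had an unadjusted p under 0.05. That gene was Mavs, at -0.41 (SE 0.15, adjusted p = 0.0406). Ifih1 was at -0.62 (95% interval -1.26 to 0.02, adjusted p = 0.114), and it was called lower with the block (-0.66, adjusted p = 0.0190).

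Tumor-conditioned medium by itself went with lower Ddx58 and higher Mavs, and the other 4 genes did not pass the test. In CM against DMEM, 1 member was called lower and 1 higher, shares near those of all genes (24.1% lower and 20.9% higher). The members were thus not called more often than genes at large. Ddx58 was 1.68-fold lower (log2 fold change -0.75, SE 0.25, adjusted p = 0.0182), although the CM sample numbered 2 lay above the lower DMEM sample. Mavs was 1.51-fold higher (0.59, SE 0.15, adjusted p = 0.00336), with all CM samples above both DMEM samples, as for 37.8% of genes. Zbp1 differed by -0.01 (95% interval -0.59 to 0.58), Ifih1 by -0.04 (-0.65 to 0.58), Dhx58 by 0.37 (-0.62 to 1.36) and Cgas by -0.12 (-0.36 to 0.12). The call of Ddx58 was lost without CM sample 1 (-0.57, adjusted p = 0.0697), CM sample 3 (-0.67, 0.0599) or DMEM sample 2 (-0.43, 0.248), and that of Mavs without CM sample 2, where its fold change of 0.46 was under the threshold. Relative to total counts alone, RLE had shifted the all-gene median by 0.31 in this comparison, and with total counts 1536 genes were higher and 4606 lower in place of 2584 and 2980, Mavs was at 0.28 (adjusted p = 0.0595) and Ddx58 at -1.07 (adjusted p = 7.29e-04).

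With ruxolitinib in both media, 2 members were called higher and 1 lower in CM + Rux against DMEM + Rux, shares near those of all genes (22.3% higher and 25% lower). Ifih1 was 1.83-fold higher (log2 fold change 0.87, SE 0.26, adjusted p = 0.00923) and Mavs 1.46-fold higher (0.55, SE 0.13, adjusted p = 0.00214), while Ddx58 was 1.57-fold lower (-0.65, SE 0.24, adjusted p = 0.0282). In each of these 3 genes the groups did not overlap, as for 35.2% of all genes in the higher and 34.8% in the lower direction. Dhx58 was at 0.92 (95% interval -0.01 to 1.85, adjusted p = 0.0752), with every CM + Rux sample above every DMEM + Rux sample, and with the replicate number as a block it was called higher (0.84, SE 0.20, adjusted p = 0.00160). Cgas at 0.40 (adjusted p = 0.00348) was short of the fold threshold, and Zbp1 was at 0.29 (-0.30 to 0.87).

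These calls of CM + Rux against DMEM + Rux leaned on single samples. Ifih1 was no longer called without CM + Rux sample 2 (0.49, adjusted p = 0.0743), and Mavs fell under the fold threshold without that sample (0.43) or DMEM + Rux sample 2 (0.49). Ddx58 was lost without CM + Rux sample 1 (adjusted p = 0.109) or 3 (0.0811) and without DMEM + Rux sample 1 (0.0653) or 2 (0.0525). Dhx58 was called without CM + Rux sample 1 (1.17, adjusted p = 0.0379) and also without CM + Rux + IKK-16 sample 2 (adjusted p = 0.0439), which belongs to neither group but to the shared fit. Here RLE shifted the all-gene median by 0.30. With total counts alone, 1699 genes were higher and 4674 lower in place of 2761 and 3096, Mavs was at 0.24 (adjusted p = 0.0608), Ifih1 at 0.55 (adjusted p = 0.0452) and Zbp1 turned to -0.02. The comparison shares its samples with others above, so the fold changes of a gene are not independent of each other.

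IKK-16 on top of ruxolitinib and CM moved no sensor past both thresholds. In edgeR 0 of the 6 members were called, where 4.07% of all genes were called higher and 3.66% lower, DESeq2 called 0, and 1 of the 6 had an unadjusted p under 0.05. That member was Cgas, at a log2 fold change of 0.48 (SE 0.10, 95% interval 0.26 to 0.70, adjusted p = 0.00700), just under the fold threshold of 0.5. Every CM + Rux + IKK-16 sample held more Cgas than any CM + Rux sample, as was so for 14.5% of all genes, and Cgas reached 127% to 145% of its level within a replicate number. It passed the threshold without CM + Rux sample 3 (0.52, adjusted p = 0.0140), without CM + Rux + IKK-16 sample 2 (0.58, adjusted p = 0.00202) and with total counts alone (0.57, adjusted p = 0.00589). Ifih1 was at -0.42 (interval -0.97 to 0.14, adjusted p = 0.317) and lower in 3 of 3 pairs. Zbp1 was at -0.09 (-0.67 to 0.48), Mavs at 0.12 (-0.16 to 0.39), Ddx58 at 0.16 (-0.36 to 0.68) and Dhx58 at 0.17 (-0.73 to 1.07).

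The other genes of these pathways were read from lists drawn up by hand, with earlier results of these data known. Each list stands beside the median log2 fold change of all genes. That median lay between -0.03 and 0.01 in every comparison, where RLE scaling tends to place it, so it is not an independent reference. Of 25 other nucleic acid sensors, 12 were lower with ruxolitinib in DMEM (median -0.80), beside 0.97% of all genes, and 11 in CM (median -0.74), beside 2.13% of all genes, and none was higher. Among these were the 2′-5′-oligoadenylate synthetases, which sense double-stranded RNA, with Oas2 at -3.58 (adjusted p = 3.74e-07) in DMEM and -3.30 (1.14e-06) in CM, and the kinase PKR (Eif2ak2) at -1.60 (4.40e-05) and -1.27 (1.75e-04). The lowest values were those of Ifit1 in DMEM (-5.55, adjusted p = 1.87e-04) and of Ifit3 in CM (-4.06, adjusted p = 2.58e-04), from a family that binds RNA. Of 7 genes for the interferon receptor and ISGF3, 3 were lower in both media, among them Irf9 at -1.84 in DMEM (adjusted p = 7.61e-06) and -1.46 in CM (4.11e-05), and Stat2 at -1.46 (8.53e-04) and -0.85 (0.0135).

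The signaling genes below the sensors were read against the same shares of all genes, which with ruxolitinib were 0.97% lower in DMEM and 2.13% lower and 1.2% higher in CM. The 15 tested regulators of RIG-I-like receptors, such as the ubiquitin ligase gene Trim25, lay between -0.49 and 0.08 in DMEM and between -0.45 and 0.11 in CM, and edgeR and DESeq2 called none, with 2 and 5 at an unadjusted p under 0.05. Of 8 shared kinases and factors, Irf7, the interferon regulatory factor of the feed-forward loop, was the member called, at -1.55 in DMEM (adjusted p = 0.00371) and -1.41 in CM (0.00249). In the list of 13 genes around cGAS and STING, the PYHIN gene Ifi204 was lower in DMEM (-2.10, adjusted p = 0.00290) and in CM (-1.69, 0.00426), and Sting1 was lower in CM (-0.78, 0.00405). Sting1 held 47.8, 48.5 and 38.8 CPM in CM and 26.6, 28.5 and 23.2 CPM in CM + Rux, without overlap. Of 9 tested genes that remove or edit nucleic acids, the RNA-editing enzyme gene Adar was lower in DMEM (-1.16, adjusted p = 8.46e-06) and in CM (-0.80, 1.18e-04), and in CM Samhd1 was lower (-0.56, 0.00776) and Rnaset2b higher (1.01, 0.0244). This list had 12 genes, and Trex1, with 0 counted fragments in every sample, was among those not tested. Among 6 genes of the ZBP1 death pathway, Casp6 was lower in CM (-0.79, adjusted p = 0.0495), and in DMEM edgeR and DESeq2 called none, with 1 at an unadjusted p under 0.05.

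**Figure D4:**
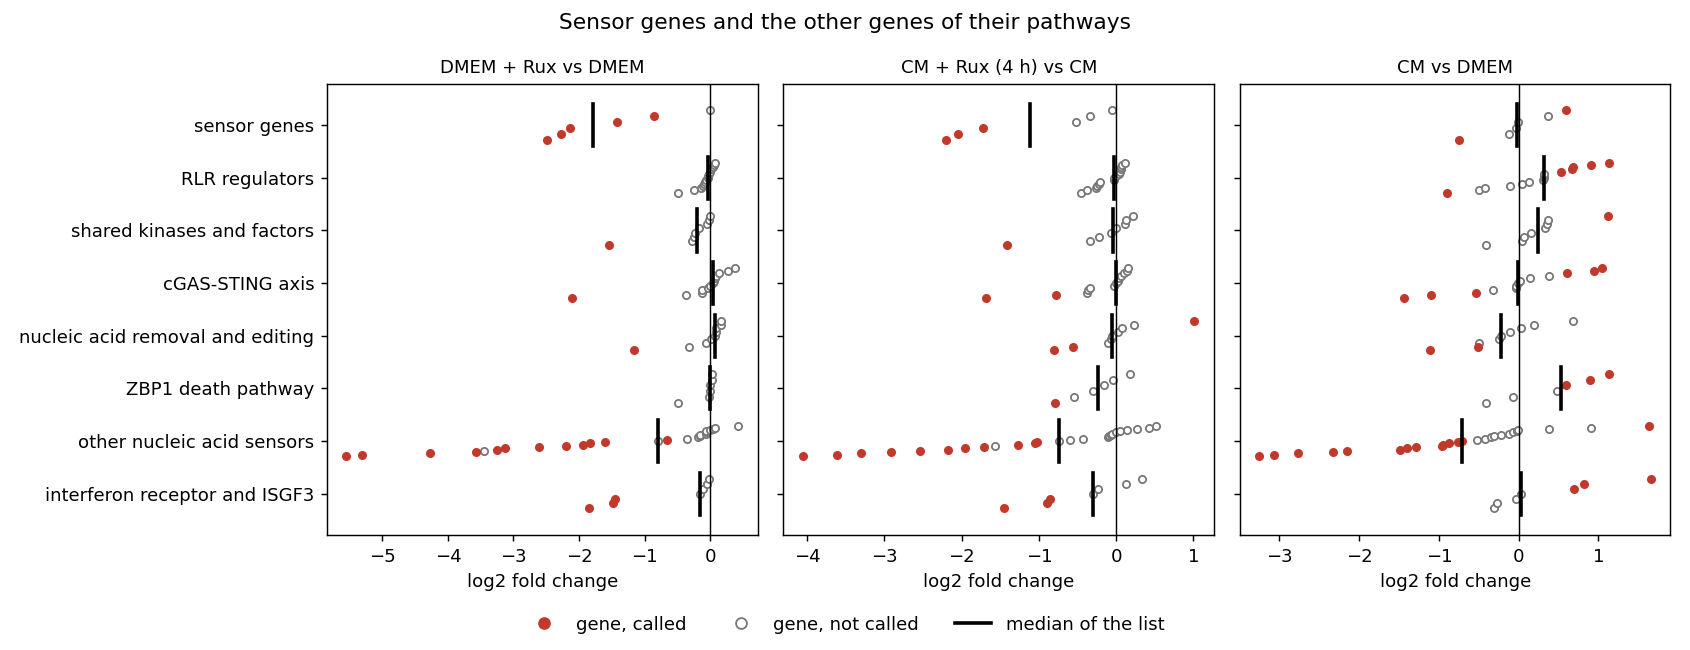
Log2 fold change of the sensor genes and of the tested genes of 7 pathway lists for ruxolitinib in DMEM, ruxolitinib in CM and CM against DMEM. Each point is a gene, filled where it passed both thresholds, and the black bar is the median of the list. The sensor genes have a median of -1.78 in DMEM and -1.12 in CM with ruxolitinib, and the RIG-I-like receptor regulators lie near 0 there.

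CM against DMEM moved the lists in both directions, beside a background of 20.9% higher and 24.1% lower. Of the 25 other sensors 13 were lower and 1 higher (median -0.72), from Ifit3 at -3.25 (adjusted p = 4.64e-06) to Lrrfip1 at 1.63 (9.99e-04), and the endosomal receptors Tlr9 (-2.77), Tlr13 (-2.33) and Tlr7 (-2.15) were among the lower. The list of RIG-I-like receptor regulators had 5 of 15 higher and 1 lower (median 0.31), with Tax1bp1 at 1.13 (adjusted p = 1.23e-07) and Prkra at -0.90 (6.75e-05). For the cGAS and STING genes it was 3 higher and 3 lower, with Surf4 at 1.05 and Nlrc3 at -1.44. The ZBP1 death pathway had 3 of 6 higher, Casp8 at 1.13 (adjusted p = 2.90e-06), Ripk3 at 0.90 (0.00352) and Casp6 at 0.59 (0.0436). Ikbke, the gene for IKKε, was higher by 1.12 (adjusted p = 1.34e-04), the receptor genes Ifnar1 and Ifnar2 by 1.66 and 0.82 and Jak1 by 0.69, and Samhd1 (-1.11) and Dnase2a (-0.51) were lower. These values hold under RLE scaling, and with total counts alone they move down by about the 0.31 given above.

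IKK-16 with ruxolitinib was read against 4.07% of all genes called higher and 3.66% lower. Of 25 other sensors 3 were called, all higher, among them Tlr9 (1.17, adjusted p = 0.00353) and Tlr13 (0.87, 0.00470). Nlrc3 was the 1 of 13 cGAS and STING genes called (higher, 0.77, adjusted p = 0.0243), and Rnaset2b the 1 of 9 genes that remove or edit nucleic acids (lower, -0.996, adjusted p = 0.00997). Of the interferon genes that these pathways induce, none of 9 examined passed the filter on low counts. Ifnb1 had at most 7 fragments in a sample, Ifnk at most 1, and the 7 others had 0 in every sample. A count of 0 allows up to 3 fragments for counting error. This bound covers counted fragments only. Those under a mapping quality of 10 were left out, and how many came from these genes is not known.

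Across the 16 samples, profiles of log2(CPM + 1) were compared by Pearson's r as a description, since samples share groups and replicate numbers. Zbp1 and Ddx58 (0.93), Zbp1 and Dhx58 (0.92) and Ifih1 and Dhx58 (0.89) were the most alike of the 15 pairs, and Ddx58 and Mavs (-0.16) the least. Among all genes tested other than the sensor genes themselves, Zbp1 was most like Oasl2 (0.985), Rtp4 (0.982) and Oas2 (0.975), and Ddx58 most like Cmpk2 (0.977), Usp18 (0.972) and Mx2 (0.970). Ifih1 came nearest to Rsad2 (0.960), Stat2 (0.948) and Ifit1 (0.937), and Dhx58 to Daxx (0.944), Trim30c (0.931) and Ifi202b (0.919). For Mavs the nearest were Cxcl14 (0.969), Cadm4 (0.964) and Cinp (0.962), and for Cgas they were Gm9575 (0.834), Slfn3 (0.815) and Ascc3 (0.760).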

How the data were processed

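RNA of 16 BMDM samples was sequenced by the authors from stranded mRNA libraries with paired reads. The authors trimmed reads with Trimmomatic 0.33, aligned them to GRCm38 with HISAT2 2.1.0 and counted fragments by gene and strand with featureCounts 1.6.2 at a mapping quality of at least 10. The deposited values are raw counts per gene of Ensembl release 100. Symbols came from GENCODE M21, which named 55141 identifiers, and the 346 others held at most 0.0459% of a sample's counts.

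The genes examined, the lists, the tests and the alternatives were chosen with earlier results of these data known. Counts were scaled by RLE (factors 0.875 to 1.18), genes had to exceed 1 CPM in 2 samples or more, and 8 comparisons were tested in a single model of 6 groups with edgeR 4.0.16 (quasi-likelihood, limma 3.58.1, R 4.3.3). Calls needed a Benjamini-Hochberg adjusted p under 0.05 over the 12372 genes and a log2 fold change beyond 0.5. The script was tested on simulated data. Pairs of replicates differed by 13.2 to 50.3 in chi-square per degree of freedom, so no 2 samples of a group were copies.

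Replicate numbers come from the sample titles. Deviations from group means correlated by -0.01 to 0.76 (median 0.38) in 35 same-numbered pairs of samples and by -0.50 to 0.14 in 71 other pairs, and every same-numbered pair was over 0.1 in each comparison with 3 pairs and among the 4 groups of the interaction. A fit with the number as a block was run beside the main one. Other alternatives were DESeq2 1.42.0, TMM, total counts alone, no filter, filterByExpr, only the groups compared, no fold threshold, an adjusted p under 0.1 and each sample left out. All sensor genes are named. Of each list the text names the called genes with the largest positive and negative change, or all where at most 5 were called, and some genes these rules take are not reported here. Further list genes, such as Oas2, Eif2ak2, Tlr7, Tlr9, Tlr13 and Trim25, were named after their values were seen. The 3 genes most like each member were taken by Pearson's r from the tested genes other than members. Motif searches and plots used Python 3.11.15, pandas 2.3.3, numpy 2.4.6 and matplotlib 3.10.9.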

Additional observations from a re-analysis of the deposited data

Results flagged for a closer look

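The effect of ruxolitinib on Cgas differed between the media by the interaction term of the model with the replicate number as a block, which is why it is listed here. Ruxolitinib lowered Cgas from 14.1 to 7.77 CPM in DMEM and from 13.02 to 10.3 CPM in CM, and the difference of the log2 effects was 0.55 (SE 0.14, adjusted p = 0.0356, edgeR's quasi-likelihood test). Without the block the difference was 0.52 and did not pass (adjusted p = 0.176).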

How the results depend on the processing

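Of 1152 alternative values of the members' log2 fold changes, 1058 kept their direction and their side of the thresholds, 32 lost a call, 20 gained one and 42 changed sign, and no value that changed sign was called. Leaving out a sample can leave a group with 1 sample, which is then assumed to vary like the other groups. Beside the counts of members given above, CM against DMEM had 0 higher with total counts alone and 0 without the samples numbered 2, an alternative chosen after seeing the data, and leaving out each sample gave 0 to 1 higher and 0 to 1 lower. With IKK-16, 1 was higher (Cgas) with total counts alone, without a fold threshold and without the samples numbered 2, and 0 to 1 with a sample left out. In DMEM + Rux against DMEM 3 to 5 were lower with a sample left out. CM + Rux against DMEM + Rux had 1 higher (Ifih1) with total counts alone, 0 without the samples numbered 2, and 0 to 3 higher and 0 to 1 lower with a sample left out. At 2 h against CM, 2 to 5 were lower with a sample left out, and against CM + Rux 2 were higher without the samples numbered 2 (Ddx58 and Dhx58) and 1 was lower with no filter (Ifih1) and without a fold threshold (Mavs). In CM + Rux against CM, Dhx58 was not called when the fit held only these groups (adjusted p = 0.0821). The causes were not tested.

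The replicate block gave 1 member higher in the interaction (Cgas) and 1 lower at 2 h against CM + Rux (Ifih1, -0.66, adjusted p = 0.0190), called Mavs at 2 h against CM (-0.51, adjusted p = 0.00279) and Dhx58 as given above, and changed no other call of a member. DMEM + Rux against DMEM, CM against DMEM and the 2 h comparisons share only 2 numbers each.

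Small values changed sign. In CM against DMEM, Ifih1 was 0.0153 with the block, Zbp1 was 1.83e-04 with no filter, 0.00141 with filterByExpr, 0.0388 with the block and 0.0703 without the samples numbered 2. With total counts alone, Zbp1 was 5.37e-04 with IKK-16 and -0.0222 in CM + Rux against DMEM + Rux (-0.0163 without the samples numbered 2), Mavs was 0.00714 in DMEM + Rux against DMEM (9.95e-04 with the block, 0.0436 without the samples numbered 2) and Cgas -0.0329 at 2 h against CM + Rux. In the interaction, without the samples numbered 2, Ddx58 was -0.15, Dhx58 -0.0585 and Zbp1 -0.0866. With each sample left out in turn, values that changed sign ranged in CM against DMEM from -0.34 to 0.18 for Ifih1, -0.0545 to 0.88 for Dhx58 and -0.30 to 0.35 for Zbp1, with IKK-16 from -0.0301 to 0.39 for Ddx58, -0.37 to 0.74 for Dhx58 and -0.33 to 0.15 for Zbp1, and in the interaction from -0.22 to 0.41 for Ddx58, -0.0191 to 0.98 for Dhx58, -0.16 to 0.0870 for Mavs and -0.0638 to 0.58 for Zbp1. Mavs ranged from -0.17 to 0.0797 in CM + Rux against CM and from -0.0410 to 0.0507 in DMEM + Rux against DMEM, and Cgas from -0.0440 to 0.12 at 2 h against CM + Rux.

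Over all genes, calls higher and lower in CM + Rux against CM went from 149 and 263 to 305 and 440 with the block, 269 and 416 with no filter, and 82 and 161 without CM + Rux sample 1, and higher calls to 225 without a fold threshold. Calls in the interaction went from 29 and 22 to 213 and 136 with no filter, 147 and 87 by DESeq2, 49 and 41 with total counts and 81 and 41 without the samples numbered 2. Without a fold threshold, IKK-16 had 831 and 947 in place of 504 and 453, lower calls at 2 h were 2843 in place of 1650 against CM and 2471 in place of 1327 against CM + Rux, and higher calls in CM against DMEM 3883 in place of 2584. The shallowest sample had 18449388 fragments, which limits Cgas and Zbp1 most.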

Other observations

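In CM + Rux against DMEM + Rux, where 22.3% of all genes were higher and 25% lower in edgeR's quasi-likelihood test, the other nucleic acid sensors split. Of 25 genes 3 were higher and 11 lower, with Oasl1 (3.76, adjusted p = 0.00286), Ifit1 (2.57, adjusted p = 0.00201) and Lrrfip1 (1.83, adjusted p = 1.02e-04) higher. The endosomal receptors Tlr13 (-2.13, adjusted p = 1.64e-07), Tlr9 (-1.995, adjusted p = 2.66e-06) and Tlr7 (-1.57, adjusted p = 3.70e-06) were lower. Around cGAS and STING, 3 of 13 genes were higher and 4 lower, from Surf4 (1.24, adjusted p = 8.19e-09) to Nlrc3 (-2.04, adjusted p = 1.17e-06), with Sting1 at -0.67 (adjusted p = 5.96e-04). Ikbke was higher by 1.54 (adjusted p = 1.73e-06), and of the 7 genes for the interferon receptor and ISGF3, 4 were higher, namely Ifnar1 (1.44), Ifnar2 (1.004), Stat2 (0.63) and Jak1 (0.51). All these values hold under RLE scaling, which shifted the all-gene median by 0.30 relative to total counts alone. Stat2 and Jak1 exceed the fold threshold of 0.5 by less than that shift.

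In the 2 h samples against CM + Rux at 4 h, 11 of the 25 other sensors were higher and 2 lower, where 12.6% and 10.7% of all genes were. Ifit3 (2.41, adjusted p = 0.00530) and Oas3 (2.36, adjusted p = 5.66e-05) had the largest positive differences, and Oasl1 (-3.14, adjusted p = 0.0322) and Ifit1 (-2.27, adjusted p = 0.0223) were the lower ones. Irf7 was higher at 2 h (1.03, adjusted p = 0.00541), as were Enpp1 (1.36, adjusted p = 5.72e-05), whose product degrades cGAMP, and Samhd1 (0.90, adjusted p = 6.57e-05).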
